A study of Drosophila melanogaster with 35 samples.

Results

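The genes wa-cup, elfless, Mst87F, Klp59C and LS2, which belong to the male germline of Drosophila melanogaster, were followed across DamID and transcript measurements in Kc167 cells, an embryonic cell line. They were chosen by name, as the array rows whose only gene is one of these 5. Each had 1 row, a cDNA probe, so 5 rows stand for 5 of the 7258 genes with a symbol. With the rows that could not be given a single gene name, the table held 8421 features (genes or unnamed rows) for the tests below.

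In DamID, a chromatin protein is fused to the bacterial adenine methyltransferase Dam, and DNA near the places where the fusion sits becomes methylated. Methylated DNA of cells expressing the fusion is hybridised against that of cells expressing Dam alone. The study had 35 two-colour arrays in 13 groups and asked which genes lie at the nuclear lamina, through Dam-Lam, the fusion of the full-length B-type lamin Lam. A second fusion, Dam-Lam delta CaaX, lacks the membrane-targeting end of Lam. All DamID cells were Kc167 cells transfected with a Dam plasmid. Untreated cells gave 4 arrays of Dam-Lam over Dam and 4 of Dam-Lam delta CaaX over Dam. A second set of 10 arrays, in 5 dye-swapped pairs, used trichostatin A (TSA) at 100 nM for 24 h, a drug that blocks histone deacetylases. Its pairs were Dam-Lam, Dam-Lam delta CaaX and Dam, each with over without TSA, and both fusions over Dam in the presence of TSA. Another 10 arrays used 1 µM ecdysone, the steroid hormone of moulting, for 24 h: Dam-Lam over Dam with (3 arrays) and without it (3 arrays), and with over without it for Dam-Lam (2 arrays) and Dam (2 arrays). RNA of untransfected cells was hybridised with over without ecdysone on 5 arrays, for which the labels used here give no dose, and against genomic DNA on 2 arrays.

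The lamina is the protein network under the nuclear membrane, and genes beside it are, as a rule, little transcribed. Many male germline genes are transcribed only in spermatocytes, under testis-specific transcription factors, and are silent in somatic cells. A few, the cup and comet genes, are transcribed again in elongating spermatids. Kc167 cells have features of hemocytes, the blood cells of the fly.

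Values are log2 ratios, each array centred on its median, and errors are standard errors unless an SD is named. Channel 1 of the labels was taken as the numerator and the log base as 2; neither is stated. No label tells whether the arrays of 1 group stem from different cultures, and the p-values below rest on the spread between arrays, which can be purely technical. If both arrays of each TSA pair shared 1 extract of DNA, that set would hold no independent replicates. Arrays carried values for 7542 to 8485 rows. Of 12 hemocyte markers, 10 were on the array, with transcript ratios from -2.25 for NimC1 to 4.49 for Hml, the hemocyte clotting protein hemolectin. The 13 genes of germline stem cells and meiosis on the array had a median of -1.39, from -2.36 for tej to 1.81 for zuc.

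All 5 genes had transcript ratios below the array median. The measure was mRNA over genomic DNA, in which the DNA channel stands for how well a probe hybridises. The values were -1.99 and -2.98 for wa-cup, whose RNA gathers at the ends of elongating spermatids, and its mean of -2.49 (SD 0.70, n = 2 arrays) was higher than that of 146 of 8074 features. Klp59C, a kinesin-13 that depolymerises microtubules, had -1.25 and -1.71, at the 19.8th percentile. For elfless, which encodes a RING-type ubiquitin ligase of the testis, the values were -1.40 and -1.38, at the 22.5th percentile. The genes therefore filled the lower part of the range on both arrays. LS2, a testis paralogue of the large subunit of the splicing factor U2AF, had -1.02 and -1.29 (27.7th percentile). Mst87F, a sperm tail protein whose mRNA is stored before translation, had -0.80 and -1.48 (28.0th percentile). The 25th percentile of all features was -1.27, and the 24 cytosolic ribosomal protein genes measured had a median of 6.52. The ranges of wa-cup and of the other 4 did not overlap, while those of Klp59C, Mst87F and LS2 overlapped each other. With 2 arrays there was no test, and in a bulk culture a low level in all cells cannot be told from a higher level in few.

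**Figure D1:**
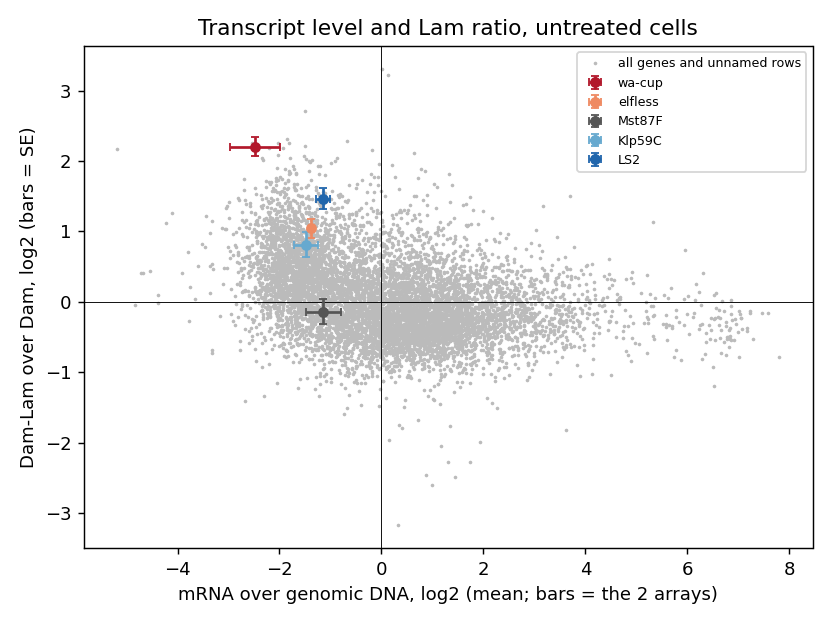
Each grey point is a gene or unnamed row, with its transcript ratio (mRNA over genomic DNA, log2, mean of 2 arrays) on the x axis and its Dam-Lam over Dam ratio in untreated cells (log2) on the y axis; horizontal bars span the 2 mRNA arrays and vertical bars are the standard error. The 5 genes lie left of 0, and Mst87F is the one whose Dam-Lam ratio is not above 0.

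In untreated cells wa-cup, LS2, elfless and Klp59C were more methylated with Dam-Lam than with Dam, and Mst87F was not distinguishable from 0. The ratios of wa-cup were 2.26 and 1.98 with the fusion in Cy5 and 2.20 and 2.38 with it in Cy3. LS2 followed with 1.11 and 1.63 in Cy5 and 1.49 and 1.61 in Cy3. No array of LS2 reached the lowest array of wa-cup. For elfless the 4 values were 1.13 and 1.14 in Cy5 and 0.92 and 0.98 in Cy3, a narrow range. Klp59C had the widest, with 0.66 and 0.82 in Cy5 and 1.30 and 0.47 in Cy3. The 4 genes were above 0 on every array. Mst87F gave 0.008 and -0.0029 in Cy5 and -0.28 on the single Cy3 array that held a value for it.

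By limma's moderated test over 8062 features, wa-cup stood at 2.20 ± 0.14 (adjusted p = 0.00176), and 9 features were higher. LS2 stood at 1.46 ± 0.15 (adjusted p = 0.002576), elfless at 1.04 ± 0.13 (adjusted p = 0.003778) and Klp59C at 0.81 ± 0.17 (adjusted p = 0.01553). These are the 98.3rd, 94th and 89.3rd percentiles of all features. The fitted ratio of Mst87F was -0.14 ± 0.17 (adjusted p = 0.543, 3 arrays), and a p above the threshold does not show that it equals 0. So 4 of the 5 genes were higher and 0 lower, where 20.3% of all features were higher and 14.9% lower. Some calls were lost without array 2907 or 2921, both with the fusion in Cy5. With either left out, the dye term leaves the residual spread of a gene to the Cy3 arrays alone. Without 2907 the adjusted p was 0.05589 for elfless and 0.1031 for Klp59C, and without 2921 it was 0.06488, 0.1314 and, for LS2, 0.05221. The estimates stayed above 0 without any 1 array, from 1.03 to 1.06 for elfless, 0.60 to 1.02 for Klp59C and 1.33 to 1.59 for LS2, and wa-cup kept its call (adjusted p at most 0.04901). Over the whole array the higher features fell from 1637 to 219 without 2907 and to 7 without 2921.

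**Figure D2:**
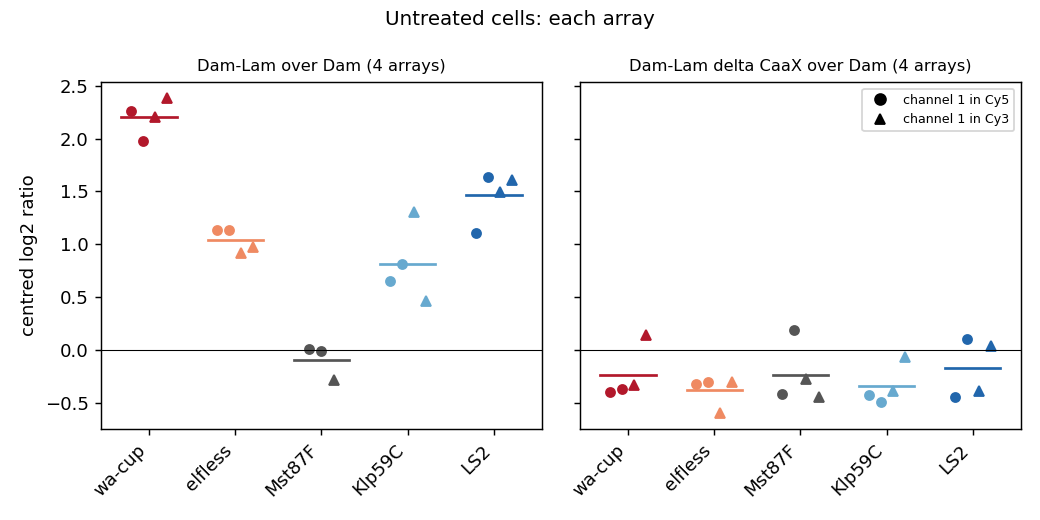
Centred log2 ratio of each gene on each array of untreated cells, with the panel of Dam-Lam over Dam first and that of Dam-Lam delta CaaX second, with circles for the fusion in Cy5, triangles for Cy3 and lines for the array means. With Dam-Lam, wa-cup, elfless, Klp59C and LS2 sit above 0 on all 4 arrays; with Dam-Lam delta CaaX no gene exceeds 0.19.

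Without its membrane-targeting end, the fusion gave none of the 5 genes a raised ratio. With Dam-Lam delta CaaX, elfless had -0.32 and -0.30 in Cy5 and -0.59 and -0.30 in Cy3, and was lower than Dam (-0.38 ± 0.12, limma adjusted p = 0.04276). That call was lost without the array at -0.59 (adjusted p = 0.3156), without array 2968 (0.1314) and with no dye term (0.05487). The values of Klp59C were -0.42, -0.48, -0.38 and -0.066, with a mean below 0 that missed the threshold (-0.34 ± 0.12, adjusted p = 0.06257). The remaining genes had arrays on both sides of 0. For wa-cup the values were -0.39, -0.37, -0.33 and 0.14, for Mst87F -0.41, 0.19, -0.27 and -0.44 (lower without the array at 0.19, -0.38 with adjusted p = 0.0305), and for LS2 -0.44, 0.11, -0.38 and 0.044. In all, 1 of 5 was lower and 0 higher, against 16.4% and 16.1% of 8056 features.

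The 2 fusions were never on the same array, so their difference is one between sets of arrays. It was 2.44 ± 0.18 for wa-cup (limma adjusted p = 9.52e-05), 1.63 ± 0.21 for LS2 (0.000402), 1.42 ± 0.17 for elfless (0.000303) and 1.15 ± 0.21 for Klp59C (0.002335). For each of these 4 genes the lowest Dam-Lam array lay above the highest Dam-Lam delta CaaX array. The share of all features with such a gap was not counted, so it only describes these genes. Mst87F differed by 0.10 ± 0.21 (adjusted p = 0.7465), and its arrays overlapped. Thus 4 of 5 genes were higher with the full-length fusion, against 21.1% of 7711 features. Leaving out any of the 8 arrays kept these 4 calls, with adjusted p of at most 0.01142.

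TSA lowered Dam-Lam methylation at the 4 genes with a raised ratio and raised it at Mst87F. On the arrays of Dam-Lam with over without TSA, wa-cup had -1.78 and -1.81, elfless -1.60 and -1.72, and LS2 -1.16 and -1.40. Klp59C moved less, with -0.60 and -0.40, and Mst87F had 0.47 and 0.67. Both arrays of every gene agreed in sign. The fit of the TSA set draws the error and p-value of a gene from all 10 TSA arrays. They do not measure the spread of the 2 arrays printed beside them, here and in the TSA results below. In 1 limma fit of all 10 TSA arrays the changes were -1.79 ± 0.10 for wa-cup, -1.66 ± 0.18 for elfless, -1.28 ± 0.09 for LS2, -0.50 ± 0.09 for Klp59C and 0.57 ± 0.14 for Mst87F, with adjusted p from 1.021e-07 to 0.003256. That is 4 of 5 lower and 1 higher, where 33.6% of 7089 features were lower and 31.9% higher. The call for Mst87F was lost without array 3687 (0.34, adjusted p = 0.1946) and with arrays scaled to the same spread (0.44, adjusted p = 0.06932).

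Dam alone, which carries no lamin, also changed. Its methylation rose with TSA at Mst87F, with 1.35 and 0.59 on the 2 arrays (0.97 ± 0.14, limma adjusted p = 0.000586), and 8 of 7089 features rose more. The 2 arrays of Mst87F differ widely, and without array 3690 the change was 0.60. Its error of 0.14 is the same as that of its Dam-Lam and Dam-Lam delta CaaX changes and does not show this difference. It fell at wa-cup, with -0.95 and -0.53 (-0.74 ± 0.10, adjusted p = 0.0005188), and at LS2, with -0.43 and -0.53 (-0.48 ± 0.09, adjusted p = 0.002559). For elfless the arrays had opposite signs, 0.066 and -0.16 (-0.05 ± 0.18, adjusted p = 0.8547). Klp59C had 0.076 and 0.30 (0.19 ± 0.09, adjusted p = 0.1338). So 1 of 5 rose and 2 fell, where 15.6% of features rose and 16% fell.

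With Dam-Lam delta CaaX, TSA raised Mst87F, with 0.93 and 0.62 on the arrays (0.77 ± 0.14, limma adjusted p = 0.0004727), and Klp59C, with 0.31 and 0.63 (0.47 ± 0.09, adjusted p = 0.0007753). It lowered wa-cup, with -0.55 and -0.38 (-0.47 ± 0.10, adjusted p = 0.002169). The values of LS2, -0.14 and -0.21, did not pass the test (adjusted p = 0.1244), and those of elfless, -0.59 and 0.24, had opposite signs (adjusted p = 0.426; without array 3693, -0.65 with adjusted p = 0.03167). In this comparison 27.8% of features rose and 29.2% fell. The wa-cup call was lost without array 3692 (adjusted p = 0.05855) and the Klp59C call without array 3693 (adjusted p = 0.05986). Of the 5 genes, only Mst87F rose with all 3 proteins, Dam alone included. The rise is not particular to it. Prtl99C and betaTub85D, of the sperm chromatin and spermatid genes below, also rose with all 3, as did tyf, CtsK2 and Pfk. Dam methylation rose at 2 of the 6 sperm chromatin and spermatid genes tested and fell at 1, where 15.6% of features rose and 16% fell. The features that rose with all 3 were not counted.

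**Figure D3:**
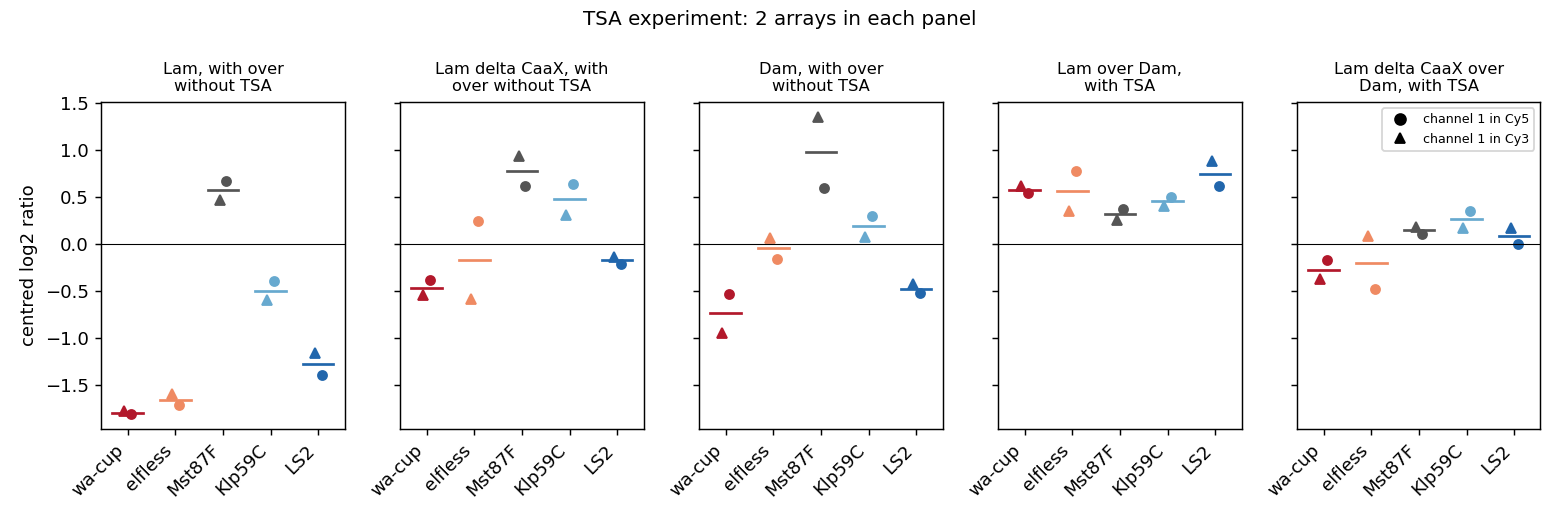
Centred log2 ratio of each gene on the 10 arrays of the TSA set, 2 arrays in each panel, with circles for channel 1 in Cy5, triangles for Cy3 and lines for the mean. In the first panel wa-cup, elfless and LS2 lie below -1 and Mst87F above 0; in the panel of Dam alone, Mst87F reaches 1.35.

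In the presence of TSA the Dam-Lam over Dam ratios of 4 genes were still above 0, with lower log2 values than in untreated cells. LS2 had 0.89 and 0.61 on the arrays, wa-cup 0.62 and 0.54, elfless 0.35 and 0.78, and Klp59C 0.40 and 0.50. Fitted, these were 0.75 ± 0.09, 0.58 ± 0.10, 0.56 ± 0.18 and 0.45 ± 0.09, with limma adjusted p of 0.000275, 0.001875, 0.02933 and 0.003246. Mst87F had 0.25 and 0.37 (0.31 ± 0.14, adjusted p = 0.1053), and passed without array 3690 or 3691 (adjusted p = 0.02645). Thus 4 of 5 were higher, against 19.5% of features. The ratios of all features were also closer together with TSA, with an SD of 0.32 against 0.58 in untreated cells. By rank LS2, elfless and Klp59C stood near their places on the 4 untreated arrays, at the 98.2nd, 94.3rd and 89.6th percentiles. At the same time wa-cup stood at the 94.7th and Mst87F at the 80.9th. In the ratio without TSA from the TSA arrays, described below, the percentiles were 98.6 for LS2, 99.9 for elfless and 95.2 for Klp59C. There wa-cup stood at 99 and Mst87F at 86.3, so the ranks of elfless and Klp59C were lower with TSA within that set. Without array 3688, wa-cup, elfless and Klp59C missed the threshold (adjusted p = 0.1173, 0.1089 and 0.129), as did elfless and Klp59C without array 3689 (0.4623 and 0.05263). With Dam-Lam delta CaaX over Dam in TSA, 0 of 5 passed in either direction, where 12.5% of features did, and the fitted ratios ran from -0.28 for wa-cup to 0.26 for Klp59C, the 2 genes with an unadjusted p under 0.05 (0.02132 and 0.01421). With the arrays scaled to the same spread both of these passed (-0.49 and 0.44, adjusted p = 0.01804 and 0.01484), and wa-cup also passed without array 3690 or 3691 (adjusted p = 0.04848).

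The TSA arrays also give the ratio without TSA, by adding up 3 pairs of arrays, and so a second measure of the untreated ratio on other arrays. It was 2.17 ± 0.31 for elfless, 1.63 ± 0.18 for wa-cup, 1.55 ± 0.16 for LS2 and 1.14 ± 0.16 for Klp59C, with limma adjusted p from 8.747e-05 to 0.0003847. Mst87F was higher here, at 0.71 ± 0.24 (adjusted p = 0.03827), so 5 of 5 were higher and 0 lower, against 20.4% and 13.7% of features. The Mst87F call was lost without array 3686 (0.48), 3688 (0.89), 3689 (0.54) or 3690 (0.34), and with no dye term, with adjusted p from 0.05271 to 0.2396. Beside the 4 untreated arrays, elfless was higher, wa-cup lower and Mst87F higher by more than the sum of both standard errors, while LS2 and Klp59C were within it; that difference between the sets was not tested. With Dam-Lam delta CaaX the same sum gave 0 of 5 in either direction, against 12.2% of features. The lowest value there was that of wa-cup (-0.55 ± 0.18, adjusted p = 0.06525, unadjusted p = 0.009979), which passed with equal spread (-1.03, adjusted p = 0.0445) and without array 3691 (-0.73, adjusted p = 0.01986); Mst87F, at 0.34 ± 0.24, passed without that array too (0.71, adjusted p = 0.03257).

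Subtracting the change of Dam from that of Dam-Lam gives the change of the ratio with TSA. It was -1.61 ± 0.25 for elfless, lower than all but 1 of the 7089 features, -1.05 ± 0.15 for wa-cup, -0.80 ± 0.13 for LS2 and -0.69 ± 0.13 for Klp59C (limma adjusted p = 0.001289, 0.0009705, 0.001461 and 0.002819). Mst87F had -0.40 ± 0.20 (adjusted p = 0.1435; without array 3691, -0.77 with adjusted p = 0.007307), and the 0.57 rise of its Dam-Lam methylation stood beside a 0.97 rise of Dam. In all 4 of 5 fell and 0 rose, where 17.6% of features fell and 12.4% rose. These 4 calls held without any single array, with adjusted p of at most 0.03639. With the arrays scaled to the same spread they were lost: the changes were -1.20, -0.41, -0.34 and -0.64 for elfless, wa-cup, LS2 and Klp59C, with adjusted p of 0.1914, 0.3039, 0.3294 and 0.1517, and limma called 0 features in either direction, although 1121 features, 4 of the 5 genes among them, had an unadjusted p under 0.05. For Dam-Lam delta CaaX the change of the ratio passed for 0 of 5, from -0.20 for Mst87F to 0.30 for LS2, where 36.5% of features passed; Klp59C and LS2 had unadjusted p of 0.04838 and 0.03672. Without array 3691 wa-cup and Mst87F passed (0.45 and -0.57, adjusted p = 0.04765 and 0.02882).

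**Figure D4:**
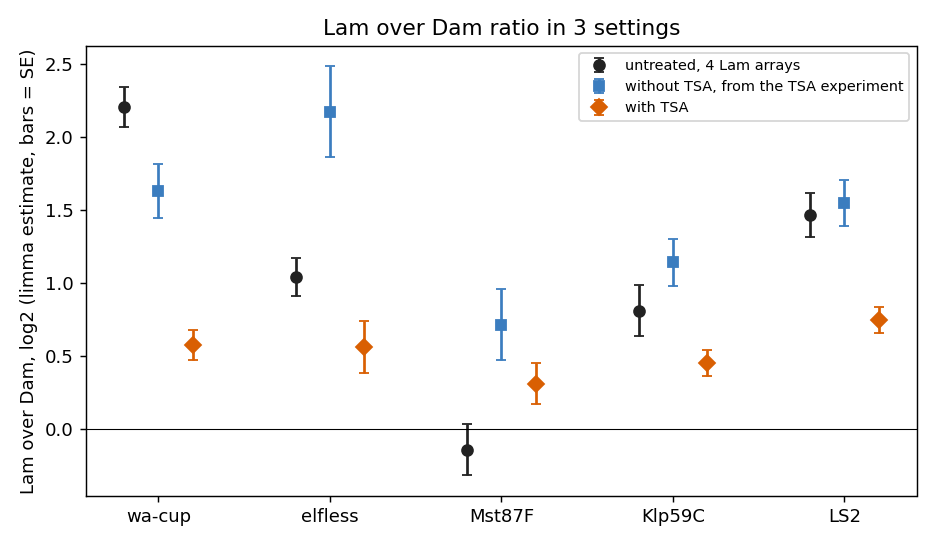
Fitted Dam-Lam over Dam ratio (log2, bars are standard errors) of each gene from the 4 untreated arrays (black), without TSA from the TSA arrays (blue) and with TSA (orange). The orange points of wa-cup, elfless, Klp59C and LS2 lie between 0.45 and 0.75, below both other estimates, while Mst87F has no common order.

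No transcript change of the 5 genes with ecdysone passed limma's test on 5 arrays. The fitted changes ran from 0.10 ± 0.18 for Klp59C to 0.24 ± 0.21 for elfless, with adjusted p from 0.6612 to 0.8529, and none passed at an unadjusted p under 0.05 either; over all features 3.78% passed in either direction. Each gene had arrays on both sides of 0. The arrays of elfless ran from -0.74 to 1.06, those of Klp59C from -0.89 to 0.65 and those of Mst87F from -0.57 to 0.79, with the extremes on arrays 3426 and 3427. Those 2 arrays correlated at -0.143 over all rows, whereas the other pairs of the group lay between 0.151 and 0.752. The range of wa-cup was narrower, from -0.02 to 0.49.

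In the ecdysone set, Dam-Lam over Dam arrays of the same group and dye had opposite signs over the whole array, with correlations of -0.638 and -0.556. Their direction is therefore not settled, and no test was made. With ecdysone, wa-cup had -1.38, 1.60 and 1.02, elfless -0.89, 1.73 and 0.62, LS2 -0.72, 1.18 and 0.98, Klp59C -0.49, 0.97 and 0.68, and Mst87F -0.008, 0.20 and 0.22. Without ecdysone, wa-cup had 2.36, -2.17 and -1.74, elfless 2.83, -1.38 and -1.44, LS2 1.05, -1.44 and -1.58, Klp59C 0.79, -0.79 and -0.69, and Mst87F 0.55, -0.81 and -0.88. Within an array the 5 genes shared 1 sign, on all 6 arrays. For Mst87F on array 3428 that rests on the centring, since its -0.008 was 0.04 as deposited. If each array is turned so that it correlates positively with the untreated Dam-Lam arrays, the means with and without ecdysone were 1.34 and 2.09 for wa-cup, 1.08 and 1.88 for elfless, 0.96 and 1.36 for LS2, 0.71 and 0.75 for Klp59C and 0.14 and 0.75 for Mst87F. That turning uses the values themselves, so it fixes most of the sign.

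The direct arrays of ecdysone over no hormone, 2 for Dam-Lam and 2 for Dam, correlated at 0.017 and 0.064 over all rows. At elfless Dam-Lam had -0.83 and -0.24 and Dam 0.81 and 0.41, the means farthest from 0 among the 5 genes in both groups. LS2 had 0.30 and 0.022 with Dam-Lam and -0.24 and -0.35 with Dam. The other 3 genes lay between -0.31 and 0.255 on all 4 arrays. With arrays that hardly correlate, these are values without a test.

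Among relatives of wa-cup, 13 of the 22 cup and comet genes were on the array, and all 13 had transcript ratios below 0, with a median of -1.80. Besides wa-cup, 6 of 12 were higher with Dam-Lam in untreated cells and 0 lower, where 20.3% of all features were higher and 14.9% lower. They included p-cup at 1.62 ± 0.35 and w-cup at 1.32 ± 0.16, then sunz at 0.69 ± 0.14 and boly at 0.61 ± 0.16 (limma adjusted p = 0.0152, 0.003331, 0.01388 and 0.0306). The other relatives had lower values, from -0.17 for f-cup to 0.56 for schuy, the latter and soti (0.47) also past the threshold. The median of the 13 was 0.47, against -0.02 over all features. With TSA the Dam-Lam ratio fell at p-cup (-0.83 ± 0.15, adjusted p = 0.002025) and sunz (-0.65 ± 0.17, adjusted p = 0.01304). These are 2 of the 9 tested besides wa-cup, and the ratio rose at 0. Over all features 17.6% fell and 12.4% rose, so the count of falls is near that share.

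The relatives of Mst87F gave no common direction. Of the 7 sperm tail genes of the Mst family, 4 were on the array. In untreated cells Mst84Da was lower with Dam-Lam (-0.81 ± 0.14, limma adjusted p = 0.008402). Mst84Db (0.43 ± 0.20, adjusted p = 0.1251) and Mst98Cb (0.24 ± 0.13, adjusted p = 0.1846) did not pass the threshold. By the ratio without TSA from the TSA arrays, Mst84Db was higher (0.65 ± 0.16, limma adjusted p = 0.008666), while Mst84Da and Mst98Cb did not pass. That ratio fell with TSA at Mst84Db (-0.76 ± 0.13, limma adjusted p = 0.001791) and rose at Mst84Da (0.54 ± 0.19, limma adjusted p = 0.04919). Mst84Da had a transcript ratio of 1.29, at the 78th percentile, and Mst98Cb one of -1.90. With TSA, Dam methylation rose at Mst87F, fell at Mst98Cb (-0.27 ± 0.09, adjusted p = 0.04213) and did not pass at the Mst84D genes, while Dam-Lam methylation rose at Mst84Da (0.34 ± 0.14, adjusted p = 0.04165) and fell at Mst84Db (-0.90 ± 0.09, adjusted p = 4.22e-06). With Mst87F, 2 of the 4 rose and 1 fell in that comparison, where 31.9% of all features rose and 33.6% fell. Genes of this family are similar in sequence, and cross-hybridisation between their cDNA probes was not tested.

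On the 4 untreated arrays, none of the other kinesin, splicing factor and ubiquitin ligase genes listed with Klp59C, LS2 and elfless was higher with Dam-Lam. Klp10A, the other kinesin-13 measured, was lower with Dam-Lam (-0.54 ± 0.14, limma adjusted p = 0.02885), with a transcript ratio of 1.18. Of 8 further kinesin genes 0 were higher and 3 lower, among them ncd, a minus-end motor of the meiotic spindle (-1.10 ± 0.16, adjusted p = 0.00492). U2af50 and U2af38, the U2AF subunits used in all cells, stood at 0.10 ± 0.17 and -0.25 ± 0.13 (adjusted p = 0.6703 and 0.1773), with transcript ratios of 2.34 and 1.02. Of 11 further splicing factor genes 0 were higher and 4 lower. Of 16 ubiquitin ligase genes other than elfless, 0 were higher and 3 lower, and dgrn, a RING ligase like elfless, had -0.01 ± 0.13 (adjusted p = 0.9462). Over all features 20.3% were higher and 14.9% lower, so the count of lower ubiquitin ligase genes is near that share. By the ratio without TSA from the TSA arrays, 1 of 7 further kinesin genes tested was higher and 3 were lower. Of 10 splicing factor and 13 ubiquitin ligase genes tested, 0 were higher and 3 lower in each list. Over all features 20.4% were higher and 13.7% lower by that ratio.

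Other germline genes were mixed. Of 8 sperm chromatin and spermatid genes tested, 3 were higher with Dam-Lam and 2 lower. The higher ones were Tektin-A, a filament protein of the sperm tail (1.49 ± 0.14, limma adjusted p = 0.002451), and the protamine-like genes ProtB (1.16 ± 0.31, adjusted p = 0.02814) and ProtA (0.87 ± 0.14, adjusted p = 0.006398), whose products pack sperm DNA. The lower ones were Tektin-C (-0.67 ± 0.19, adjusted p = 0.03491) and betaTub85D, the testis beta-tubulin (-0.49 ± 0.14, adjusted p = 0.0351). Among the 6 meiotic arrest genes measured, which act in testis transcription, 0 were higher and 3 lower, with a median of -0.59. Their median transcript ratio was -0.10. Of 13 genes of germline stem cells and meiosis, 2 were higher, otu (0.79 ± 0.14, adjusted p = 0.007901) and ovo (0.69 ± 0.19, adjusted p = 0.03168), and 0 lower. Markers of somatic testis cells gave 2 higher of 4, those of female germline and eggshell 2 higher of 5, and those of the hemocyte lineage 5 higher and 1 lower of 10. These counts are from the 4 untreated arrays, where 20.3% of all features were higher and 14.9% lower. By the ratio without TSA from the TSA arrays, 2 of 5 meiotic arrest genes were higher and 3 lower. Of 6 sperm chromatin and spermatid genes 2 were higher and 1 lower, and of 9 stem cell and meiosis genes 0 and 1. Over all features 20.4% were higher and 13.7% lower by that ratio.

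The nearest measured genes in gene order were compared with the 5 in the same cells. Gene order was taken from the Release 6 annotation, with the 3 nearest measured genes on each side, called neighbours here. Genes without a measurement were skipped, so a neighbour need not be adjacent. The farthest, CadN, was the 14th gene from elfless, nxf4 was the 10th from wa-cup, and those of Mst87F were the 5th to the 9th. LS2 lies on chromosome arm 2R, and its 6 neighbours were all higher with Dam-Lam in untreated cells, from 0.75 for yip3 to 2.11 for CG13539. Klp59C lies on the same arm, with 9 coding genes between it and LS2; 3 of those 9 were measured, Gpdh2 (1.28 ± 0.17), CG13544 (1.26 ± 0.17) and CG13539 (2.11 ± 0.22), and all 3 were higher. These 3 count as neighbours of both genes. On the other side of Klp59C, CG9876 was higher (0.83 ± 0.21), while CG9877 (-0.20 ± 0.38) and CG3085 (0.33 ± 0.20) did not pass.

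Neighbours of elfless, on arm 2L, were higher in 4 of 6 cases, with CG31740 at 2.04 ± 0.18, ninaD, a scavenger receptor for carotenoids, at 1.26 ± 0.14, rdo at 1.06 ± 0.15 and CG5674 at 0.83 ± 0.14. CadN and Slc25A46b, at 0.42 ± 0.33 and 0.46 ± 0.16, did not pass. In the ratio without TSA from the TSA arrays both were higher, at 1.38 ± 0.23 and 1.86 ± 0.26 (limma adjusted p = 0.0009801 and 0.0003319). For wa-cup, on arm 3R, 1 of 6 neighbours was higher, near the 20.3% of all features, and the difference between the sets of neighbours was not tested. Of these 6, nxf4 was higher, at 1.98 ± 0.54, within its error of the 2.20 of wa-cup, and Mst84Da was lower. From the TSA arrays the ratio of nxf4 without TSA was 0.52 ± 0.20 (limma adjusted p = 0.05752), where wa-cup stood at 1.63. The remaining 4, Mst84Db, CG14598, CG1142 and Mics1, stood between 0.17 and 0.52 and did not pass. Mst87F, also on 3R, had 2 higher neighbours of 6, Art9 (1.10 ± 0.15) and CG31517 (0.54 ± 0.14), both on 1 side. On its other side Dip-B, CG9286 and CG9288 had ratios from -0.18 to 0.04. By the ratio without TSA from the TSA arrays, 4 of 4 tested neighbours were higher for elfless, 4 of 4 for LS2 and 2 of 4 for Klp59C. For wa-cup it was 1 of 5 (Mst84Db), and for Mst87F 2 of 6 were higher and 1 lower. Over all features 20.4% were higher and 13.7% lower by that ratio.

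With TSA the ratio fell at all 4 tested neighbours of LS2, from -0.93 to -1.36, at 3 of 4 of elfless and at 2 of 4 of Klp59C. The gene CG13539 counts for both LS2 and Klp59C. For wa-cup it fell at 1 of 5 tested neighbours and rose at 1, and for Mst87F it fell at 1 of 6 and rose at 1. These counts for wa-cup and Mst87F are near the shares over all features, where 17.6% fell and 12.4% rose. Dam methylation, which rose at Mst87F, rose at none of its 6 neighbours and fell at 1, with values from -0.44 to -0.04. For LS2 and wa-cup, where Dam methylation fell, it fell at 3 of 4 and 2 of 5 tested neighbours. For elfless and Klp59C it fell at 1 of 4 each. It rose at 0 neighbours of these 4 genes, and CG13539 again counts for both LS2 and Klp59C. Over all features Dam methylation rose at 15.6% and fell at 16%.

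**Figure D5:**
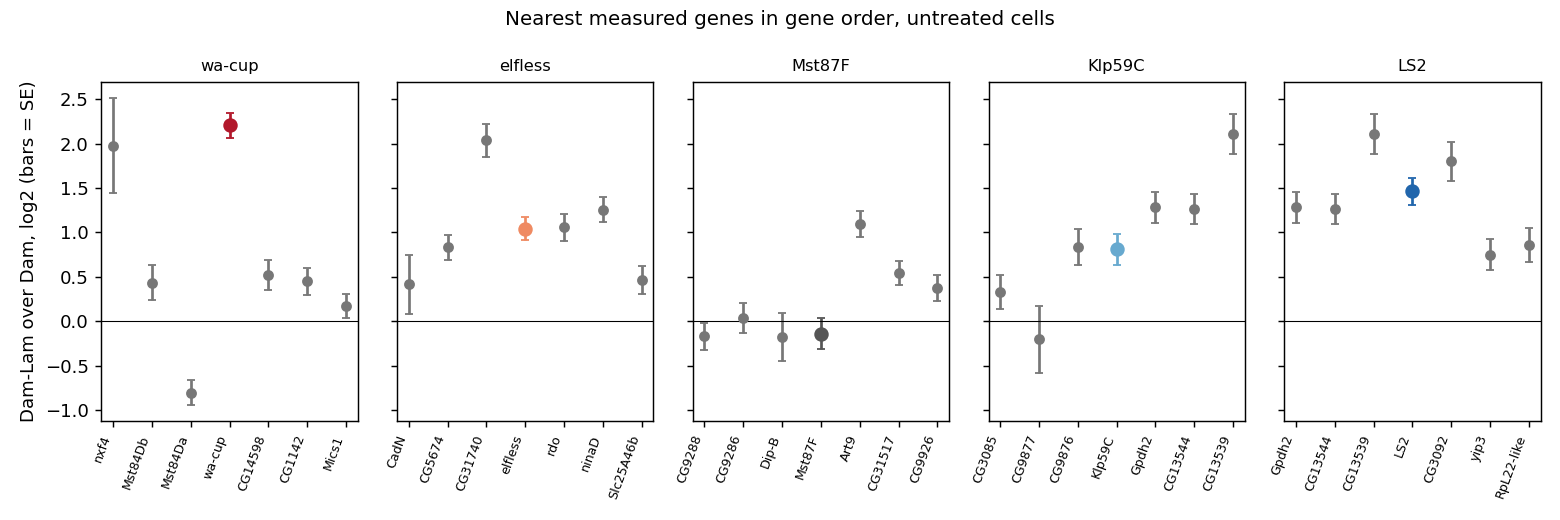
Fitted Dam-Lam over Dam ratio in untreated cells (log2, bars are standard errors) of each gene (large point) and its 3 nearest measured genes on each side (small grey points), in gene order and not to distance. The grey points beside LS2 all lie above 0.7, and 5 of the 6 beside wa-cup lie below 0.6.

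Across the 18 DamID arrays of the untreated and TSA sets, wa-cup and LS2 had the most similar patterns of the 5 genes (Pearson r = 0.963), followed by elfless and LS2 (0.911) and wa-cup and elfless (0.895). Klp59C correlated with these 3 at 0.756 to 0.802. Mst87F, on 17 arrays, ran from -0.497 with wa-cup to 0.072 with Klp59C. These points share arrays, and in part DNA samples, so the values describe likeness and carry no test.

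Among all genes with a value on the same arrays, the closest to wa-cup were CG11227 (r = 0.981), CG10345 (0.976) and Cyp6a18, a cytochrome P450 gene (0.974). For LS2 they were PH4alphaPV, a prolyl hydroxylase subunit (0.987), CG1791 (0.978) and CG4161 (0.975), and for elfless SPR, the sex peptide receptor (0.970), osy and CG34118 (both 0.944). Klp59C was closest to Gk2 (0.953), CG11584 (0.941) and Hsp60C, a mitochondrial chaperonin of the testis (0.935). The closest to Mst87F were tyf (0.884), CtsK2 (0.874) and Pfk, phosphofructokinase (0.872). The 99th percentile of r over 5698 genes lay at 0.945 for wa-cup, 0.944 for LS2, 0.909 for elfless and 0.892 for Klp59C, and at 0.790 over 5855 genes for Mst87F. The median r over the same genes lay between -0.07 and -0.013. The closest genes of Mst87F had lower r than those of the other 4.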

How the data were processed

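Values came from 1 deposited table with 9006 rows for 35 arrays. They are log ratios, taken here as log2, that the authors made with limma, per the submitters' processing notes; the sources used here give no version, background correction, normalisation, log base, direction or genome build. Spot intensities were not used, so the number of arrays limits the precision. Of the rows, 7843 name 1 gene, 246 name several and 917 had no entry in the table of probes; 7135 genes matched the Release 6 annotation, used for symbols and gene order.

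Each array was centred on its median and rows of 1 gene were averaged. The mRNA arrays with ecdysone and the TSA arrays list values for the same 7089 features. A feature needed a value on 75% of the arrays of a fit. Fits used limma 3.58.1 in R 4.3.3 (lmFit, moderated variances, a gene-wise dye term), two-sided, with Benjamini-Hochberg adjustment over all features and calls at 0.05. Untreated groups and ecdysone transcripts were fitted by group, both fusions over 8 arrays, and the TSA set as 1 model of 6 DNA samples. The procedure was tested on simulated data. The alternatives were no centring, no dye term, complete rows, single rows, equal spread (median absolute deviation), each array left out, and stricter thresholds (0.01, or an absolute log2 of 0.5). Array numbers are those of the labels.

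Genes named were the 5 members, their stated relatives, up to 4 called genes per list with the smallest adjusted p, the 3 nearest measured genes on each side, and the 3 most alike; a few genes outside that rule (tej, zuc, NimC1, Hml, 2 of the cup and comet genes) were named after their values were seen. The members and lists were chosen with earlier results of these data known. No sequence is shown.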

Additional observations from a re-analysis of the deposited data

Results flagged for a closer look

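In the 14 gene and group combinations with 4 or 5 arrays, 2 arrays lay apart from the others of their group by Dixon's test at 95%, which by chance marks about 1 in 20 groups. With Dam-Lam delta CaaX in untreated cells, the highest array of wa-cup, 2968, stood at 0.1436, with the other 3 between -0.39 and -0.33. The lowest array of elfless, 2967, stood at -0.5912, with the other 3 between -0.32 and -0.30. Both arrays have the fusion in Cy3.

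The change with TSA differed between Dam-Lam and Dam at 4 genes, by limma's test of that difference: -1.0536 at wa-cup, -1.6079 at elfless, -0.689 at Klp59C and -0.7992 at LS2. With arrays scaled to the same spread none of these 4 differences passed.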

How the results depend on the processing

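No paired analysis was possible because every array has a number of its own and the groups share none. Of 955 values of single genes under an alternative, 892 kept their direction and their side of the threshold or moved by less than 1 SD. Some alternatives leave an estimate as it was by design, so the 892 overstate how stable the results are. Each of the 5 genes has 1 row, so single rows give the same estimate. Leaving out a TSA array outside a comparison does so too. For Mst87F the Dam-Lam over Dam ratio with TSA stayed at 0.3115 without array 3690 or 3691, and only its adjusted p changed. The 26 calls that were lost and the 14 gained are given with their results above. The cause of these shifts was not tested, except that an array left out takes away residual degrees of freedom. The number of arrays limits every test here, and signal over background could not be judged.

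Signs turned at 16 values, none of them a call. Scaling to the same spread gave 0.27 for Klp59C in Dam-Lam delta CaaX over Dam without TSA. Leaving out an array turned elfless in the same comparison (-0.55 to 0.40; above 0 without 3691, 3693 or 3695), Klp59C (0.051 without 3693) and Mst87F (-0.029 without 3690, up to 0.71). It turned elfless in Dam-Lam delta CaaX over Dam with TSA (-0.59 to 0.19), in the Dam-Lam delta CaaX change with TSA (-0.65 to 0.30), in its ratio change (-0.60 to 0.35; above 0 without 3692 or 3690) and in the Dam change (-0.24 to 0.14). It turned Mst87F in the Dam-Lam delta CaaX ratio change (-0.57 to 0.17) and in Dam-Lam against Dam-Lam delta CaaX (-0.057 to 0.24). For transcripts with ecdysone it turned Mst87F (-0.014 to 0.31), Klp59C (-0.020) and elfless (-0.096 to 0.57).

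Counts over all features moved by more than 1.5 times as follows, where leaving out each array in turn gives a range. Dam-Lam over Dam, untreated: 7 to 2207 higher and 4 to 2031 lower, and at an adjusted p under 0.01 725 and 210. Dam-Lam delta CaaX over Dam, untreated: 476 to 1678 higher and 551 to 1688 lower, at 0.01 452 and 548, and with a log2 of at least 0.5 810 and 868. Dam-Lam against Dam-Lam delta CaaX: 1065 higher at 0.01. Dam-Lam change with TSA: 1498 to 2429 higher, with equal spread 1221 higher and 1502 lower, and with a log2 of at least 0.5 1277 and 1553. Dam-Lam delta CaaX change with TSA: 1059 to 2152 higher, with equal spread 1262 higher, and with a log2 of at least 0.5 997 higher and 1264 lower. Dam change with TSA: 356 to 1177 higher and 546 to 1188 lower, at 0.01 477 and 591, and with a log2 of at least 0.5 334 and 443. Dam-Lam over Dam with TSA: 262 to 1617 higher, at 0.01 767, and with a log2 of at least 0.5 563. Dam-Lam delta CaaX over Dam with TSA, either direction: 90 to 1430, with no dye term 440, with equal spread 1990, at 0.01 243 and with a log2 of at least 0.5 281. Dam-Lam over Dam without TSA, from the TSA arrays: 941 to 1539 higher and 435 to 1096 lower, with equal spread 817 and 413, and at 0.01 875 and 376. The same for Dam-Lam delta CaaX, either direction: 42 to 1388, with no dye term 391, with equal spread 190 and at 0.01 93. Change of the Dam-Lam ratio with TSA: 219 to 974 higher and 497 to 1331 lower, with equal spread 0 and 0, and at 0.01 337 and 645. Change of the Dam-Lam delta CaaX ratio, either direction: 1112 to 2734, with equal spread 696 and at 0.01 1277. Transcripts with ecdysone, either direction: 84 to 809 (the higher figure without array 3427), and at 0.01 113.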
